A study of Mus musculus with 18 samples.

Results

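Livers of wild type (WT, Ppara+/+) mice fed fenofibrate were compared with livers of WT mice fed a control diet. The comparison holds 6 of the 18 libraries of the series, 3 in each group, chosen by their labels alone. The WT fenofibrate mice ate a chow with 0.5% fenofibrate for 48 h, and the WT control mice a normal diet. All mice were 8 weeks old, on a mixed C57BL/6 and SV129 background, and their sex is not given. Each WT fenofibrate library was a pool of 3 livers and each WT control library a pool of 5 livers, so the diet and the size of the pool cannot be told apart. For reference, Ppara-null (KO, Ppara-/-) mice on the same fenofibrate chow (pools of 3, 3 and 4 livers) and on the control diet (pools of 4, 4 and 5 livers) were used, and WT mice fed 0.1% Wy14,643 (Wy; pools of 4, 4 and 5 livers), another activator of the same receptor.

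Fenofibrate is a prodrug whose acid activates PPARA, a nuclear receptor that is abundant in hepatocytes and acts as a partner of the retinoid X receptor. In fasting, PPARA drives the genes that carry fatty acids into peroxisomes and mitochondria, oxidise them and turn the product into ketone bodies. In mice and rats its activators also make peroxisomes multiply and the liver grow, and in humans they are used to lower blood triglycerides. PPARA binds direct repeats of a hexamer with 1 base between them, called DR1.

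The libraries held polyadenylated RNA, with 68858479 to 99353660 counts in WT fenofibrate and 103502493 to 150695447 counts in WT control. Levels are given as CPM, counts divided by the depth of the library on a common scale, with the depth set by TMM, an estimate of depth from the bulk of the genes, and each p is an adjusted p of the edgeR quasi-likelihood test over 14241 genes. A gene was called where this p was below 0.05, and "rose" and "fell" are used for called genes alone. Fold changes are log2 values of WT fenofibrate over WT control with their SE, over 3 libraries each. The 22 loci of the major urinary proteins (Mup) took so many counts that scaling by library totals instead would move the median gene by 0.81 log2 units, so every change is relative to the bulk of the genes, and called falls smaller than that would be rises per total count. The strand setting of the authors' counting is not given in the sources used here, so counts of genes whose loci overlap another locus are uncertain, among them Crat (with Dolpp1), Hspd1 (Hspe1), Irf7 (Phrf1), Gls2 (Spryd4), Mttp (Trmt10a) and Pltp (Ctsa). All 15 hepatocyte markers were counted in these libraries, Alb and Ttr among them. The Y-linked genes Uty, Ddx3y, Kdm5d and Eif2s3y were present in all 6 libraries and Xist had 0 or 1 count in each. In these whole livers fewer cells of a type and less RNA per cell cannot be told apart.

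Of the 14241 genes tested 5253 were called, which is 36.9% of them, with 2748 higher (19.3%) and 2505 lower (17.6%) in WT fenofibrate. The rises and falls counted in each gene list below are to be read beside these shares. At least a 2-fold rise was called for 879 genes (6.17%) and at least a 2-fold fall for 724 (5.08%). Scaled by library totals, 73% of genes would be called. The 6 libraries did not overlap between the groups for 48.7% of all genes. Of the 1603 called genes with at least a 2-fold change 1361 were still called when any one of the 6 libraries was left out. The principal component with the largest share of the variance, 83.1%, put the 3 WT fenofibrate libraries at 38.8 to 40.4 and the 3 WT control libraries at -9.51 to -7.36.

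The sequence before the start of 4 genes that handle fatty acids is shown because a DR1-like word lies there. The word was searched as AGGTCANAGGTCA on both strands, from 250 bases before to 50 bases after the RefSeq start (mm10), with 1 promoter set per gene for 10771 of the genes tested. No gene with at least a 2-fold rise carried the exact word, among 628 with a promoter, and 30 of them (4.78%) carried it with up to 2 mismatches in its 12 fixed letters. Of all genes tested with a promoter 3.99% did so, and of the 513 genes with at least a 2-fold fall 6.04%. The share among risers lay near that of all genes tested, and it was 7.08% (8 of 113) among genes with at least an 8-fold rise. At most 1 mismatch was found in 6 of the 628 risers (0.955%). The same held for 0.641% of all genes tested with a promoter and 1.36% of the genes with at least a 2-fold fall. Of the 6 risers Fabp1 is shown, with 1 mismatch in a word that begins 67 bases before the start site. Plin2, Acot4 and Cd36 are shown from those with 2 mismatches. The 4 were chosen after these matches were seen, for their known part in fatty acid handling. Below are the 250 bases before each start, 5′ to 3′ on the strand of the gene, with the word in capitals. In all 4 the repeat lies on the opposite strand, so the capitals show its reverse complement. They come from RefSeq, at chr5:17835897-17836146 (minus strand) for Cd36, chr12:84038129-84038378 (plus) for Acot4, chr4:86670060-86670309 (minus) for Plin2 and chr6:71199629-71199878 (plus) for Fabp1.
Cd36: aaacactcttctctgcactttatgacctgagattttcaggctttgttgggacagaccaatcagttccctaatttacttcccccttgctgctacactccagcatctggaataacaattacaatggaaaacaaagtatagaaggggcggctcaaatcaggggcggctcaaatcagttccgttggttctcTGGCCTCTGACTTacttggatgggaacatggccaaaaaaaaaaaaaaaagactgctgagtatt
Acot4: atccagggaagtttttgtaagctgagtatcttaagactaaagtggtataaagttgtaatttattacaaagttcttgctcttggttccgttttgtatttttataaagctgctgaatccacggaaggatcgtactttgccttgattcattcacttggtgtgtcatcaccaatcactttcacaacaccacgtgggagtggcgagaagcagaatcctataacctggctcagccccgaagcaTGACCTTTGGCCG
Plin2: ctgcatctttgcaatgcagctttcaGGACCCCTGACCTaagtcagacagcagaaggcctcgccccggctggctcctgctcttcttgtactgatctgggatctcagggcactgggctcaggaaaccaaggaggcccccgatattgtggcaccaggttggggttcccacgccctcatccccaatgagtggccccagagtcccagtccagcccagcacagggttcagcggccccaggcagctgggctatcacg
Fabp1: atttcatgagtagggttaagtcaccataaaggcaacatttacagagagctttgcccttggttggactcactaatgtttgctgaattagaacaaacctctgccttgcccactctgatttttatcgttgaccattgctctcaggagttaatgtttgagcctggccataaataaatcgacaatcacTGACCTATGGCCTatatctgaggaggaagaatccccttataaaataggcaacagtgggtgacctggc

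The receptor itself was not among the called genes. Ppara was at 57.3, 83.5 and 82.2 CPM in the WT fenofibrate libraries, against 50.5, 66.1 and 60.4 CPM in the WT control libraries, and the difference of 0.33 ± 0.18 was not called (adjusted p = 0.16). Of the 19 genes of the receptor, its partners and its coregulators 5 rose and 2 fell, with a median of 0.22 that ran from 0.11 to 0.32 with a library left out. The partner Rxra stood at 0.00 ± 0.12 and was not called, while its paralogs Rxrb (0.40 ± 0.10) and Rxrg (1.01 ± 0.21) rose. Creb3l3, a membrane-bound transcription factor of fasting liver that works with PPARA, rose by 0.59 ± 0.08, and the lipin Lpin2 by 0.76 ± 0.18. The 2 falls were the lipin Lpin1 (-0.70) and Pparg (-0.40), and both turn positive with library totals.

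A fixed set of landmark genes of PPARA activity and liver output was followed in every library. Pdk4, a kinase that shuts the pyruvate dehydrogenase complex and spares glucose, was at 205, 217 and 242 CPM in the WT fenofibrate libraries, against 1.01, 0.883 and 0.95 CPM in the WT control libraries. Its rise of 7.86 ± 0.30 was the largest of all genes that met the naming rule (adjusted p = 5.8e-13). Ehhadh, which carries out the middle steps of beta-oxidation in peroxisomes, was at 8344, 8608 and 8386 CPM in the WT fenofibrate libraries, against 64.9, 78.2 and 78.8 CPM in the WT control libraries, a rise of 6.84 ± 0.15 (adjusted p = 7.3e-16). Cyp4a14, an omega-hydroxylase, was at 368, 412 and 401 CPM in the WT fenofibrate libraries, against 1.62, 4.15 and 3.47 CPM in the WT control libraries, and rose by 7.005 ± 0.33 (adjusted p = 1.2e-11). In all 3 cases each WT fenofibrate library lay far above each WT control library. Fgf21, a fasting hormone of the liver, was at 2.13, 3.76 and 2.07 CPM in the WT fenofibrate libraries, against 0.761, 0.719 and 1.05 CPM in the WT control libraries. The groups did not overlap, and the rise was 1.65 ± 0.27 (adjusted p = 0.00024). Angptl4, an inhibitor of lipoprotein lipase and a target of PPARs in several tissues, was at 77.98, 79.2 and 84.5 CPM in the WT fenofibrate libraries, against 63.9, 58.3 and 71.5 CPM in the WT control libraries. Its difference of 0.32 ± 0.13 was not called (adjusted p = 0.06), although the groups did not overlap. Txnip, a further gene of the set, held 0 counts in every library and counts as not measured. Its locus overlaps that of Gm15441, and 95.9% of loci that lie inside another one held 0 counts in all libraries, against 27.4% of other loci.

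**Figure D1:**
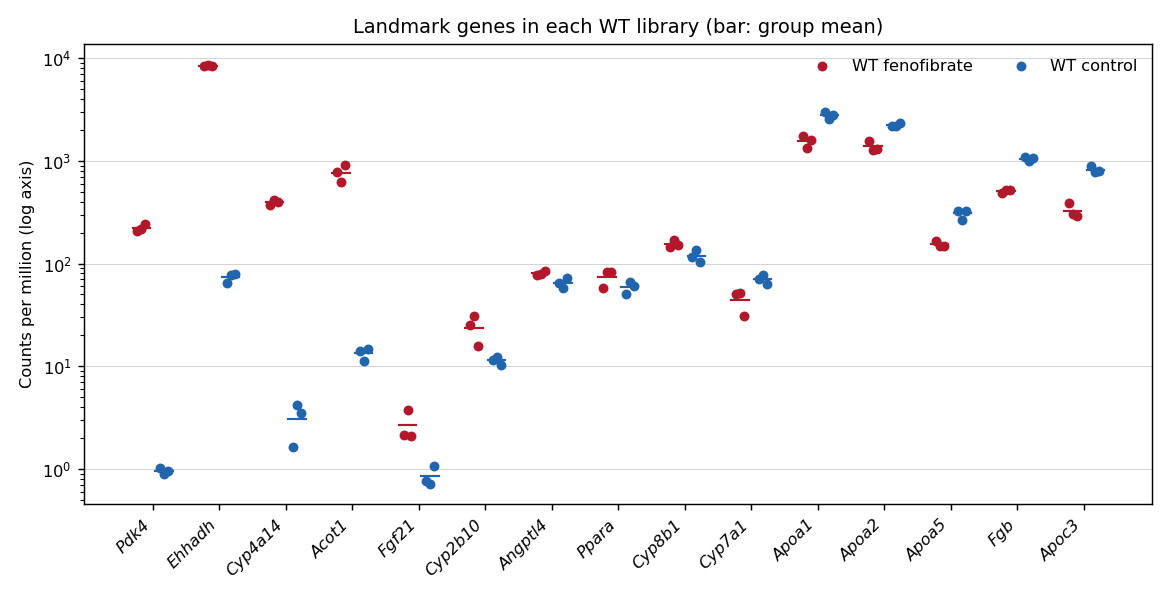
CPM (log axis) of the landmark genes in each WT fenofibrate library (red, left of each pair) and each WT control library (blue, right), with a bar at the group mean. Pdk4, Ehhadh, Cyp4a14 and Acot1 lie far higher with fenofibrate, and Apoc3, Fgb, Apoa5, Apoa2 and Apoa1 lie lower without overlap.

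Genes of omega-hydroxylation, the first step of fatty acid breakdown in microsomes, held several of the largest rises. Of 18 Cyp4 genes 10 rose and 4 fell, with a median of 1.01 that ran from 0.57 to 1.15 with a library left out. Cyp4a10 was at 8565, 7936 and 8334 CPM in the WT fenofibrate libraries, against 57.9, 98.2 and 104 CPM in the WT control libraries, a rise of 6.58 ± 0.44. Its neighbours on chromosome 4 rose too, with Cyp4a30b at 7.16 ± 0.83, Cyp4a31 at 6.81 ± 0.30 and Cyp4a32 at 5.52 ± 0.29. These paralogs are nearly alike in sequence, and the loci of Cyp4a14 and Cyp4a30b overlap, so the part of each is uncertain. Cyp4a12a and Cyp4a12b, male-biased members chosen after their values were seen, rose by 0.65 ± 0.13 and 1.36 ± 0.15. The family did not move as one. Cyp4f14, which hydroxylates leukotrienes and other lipids, was at 6.88, 6.38 and 9.74 CPM in the WT fenofibrate libraries, against 85.9, 94.4 and 101 CPM in the WT control libraries, and fell by 3.61 on the log2 scale, to 7.67 CPM on average in WT fenofibrate against 93.7 CPM in WT control. Aldh3a2, which oxidises the fatty aldehydes that follow, rose by 3.42 ± 0.11.

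Peroxisomes shorten very long fatty acids and dicarboxylic acids. Of 24 peroxisomal oxidation genes 16 rose and 6 fell, with a median of 0.79 against 0.01 for all genes. Acaa1b, a thiolase, rose by 3.66 ± 0.11, though its locus overlaps that of Dlec1, and its near copy Acaa1a held 0 counts. Hacl1, a lyase of alpha-oxidation, rose by 2.10 ± 0.19. Cat, the catalase that removes hydrogen peroxide, was at 1129, 1186 and 1249.7 CPM in the WT fenofibrate libraries, against 1129, 1350.5 and 1288 CPM in the WT control libraries. It stood at -0.08 ± 0.10 (adjusted p = 0.55), and the groups overlapped. Uox, the urate oxidase that forms the crystalline core of mouse peroxisomes and was chosen after its values were seen, fell by 1.58 on the log2 scale (-1.58 ± 0.11). Of 19 genes of peroxisome assembly and division 10 rose and 1 fell, led by the division factor Pex11a. Pex11a was at 203, 184 and 204 CPM in the WT fenofibrate libraries, against 31.8, 30.6 and 30.9 CPM in the WT control libraries, a rise of 2.66 ± 0.09. Of the 10 peroxisomal membrane proteins 5 rose and 2 fell, and the transporters Abcd2 (3.94 ± 0.27) and Abcd3 (2.31 ± 0.10) were among the rises.

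Several genes of fatty acid entry into the cell and of fatty acid activation rose. Of 15 genes of uptake and binding 9 rose and 3 fell, with a median of 1.06. Cd36, the fatty acid translocase, was at 199.8, 203 and 181 CPM in the WT fenofibrate libraries, against 8.25, 8.79 and 9.76 CPM in the WT control libraries, a rise of 4.44 ± 0.23. Slc27a1, a transport protein otherwise typical of muscle and fat, rose by 5.25 ± 0.16. Fabp1, the main fatty acid binding protein of liver and one of the genes with a DR1-like word above, was at 7194, 5270.2 and 7016 CPM in the WT fenofibrate libraries, against 1965, 1693 and 1848 CPM in the WT control libraries, a rise of 1.82 ± 0.14. For all 3 the groups were far apart. Lpl and Vldlr, a lipase and a receptor that bring in lipoprotein fat, rose by 2.62 ± 0.22 and 2.99 ± 0.19. Of the 11 acyl-CoA synthetases 6 rose and 4 fell. The long chain enzymes Acsl1 (1.74 ± 0.11) and Acsl5 (1.72 ± 0.09) were among the risers, and Acsm1, a medium chain enzyme, was among the fallers (-0.97 ± 0.09).

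Thioesterases release free acids from acyl-CoA. Of 15 thioesterase genes 9 rose and 2 fell, with a median of 1.18. The cluster on chromosome 12 led, with the cytosolic Acot1 at 777, 622 and 908 CPM in the WT fenofibrate libraries, against 14.004, 11.2 and 14.8 CPM in the WT control libraries. Its rise was 5.85 ± 0.18, and the mitochondrial Acot2 rose by 6.36 ± 0.32. The peroxisomal Acot4 (3.62 ± 0.11), whose upstream bases are given above, and Acot3 (4.97 ± 0.18) rose as well. Acot5 varied among pools, at 35.99, 16.1 and 101 CPM in the WT fenofibrate libraries, against 1.07, 0.801 and 0.0579 CPM in the WT control libraries. Its groups were still apart (6.26 ± 0.86), and the close sequence of these paralogs leaves the part of each uncertain. Acot7 and Acot13, from other loci, stood at 0.23 ± 0.10 and 0.21 ± 0.11 and were not called. Of 16 genes of coenzyme A synthesis and turnover 11 rose and 2 fell. Vnn1, which recycles pantothenate, rose by 4.95 ± 0.23, and Pank1, the kinase that begins the synthesis, by 1.21 ± 0.08. Nudt7, which breaks coenzyme A down in peroxisomes, fell by 0.94 on the log2 scale (-0.94 ± 0.16).

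Of 12 genes of the carnitine route into mitochondria 10 rose and 0 fell, with a median of 1.75. Crat, the acetyltransferase, was at 157, 170.1 and 174 CPM in the WT fenofibrate libraries, against 9.44, 8.82 and 10.6 CPM in the WT control libraries, a rise of 4.12 ± 0.17. Cpt1b, the muscle form of the gatekeeper enzyme, was at 92.2, 96.3 and 96.4 CPM in the WT fenofibrate libraries, against 7.43, 7.16 and 6.98 CPM in the WT control libraries, a rise of 3.72 ± 0.12. Cpt1a, the liver form, was chosen for this contrast after its values were seen, and was at 185, 255 and 229 CPM in the WT fenofibrate libraries, against 134, 158 and 145 CPM in the WT control libraries. Its rise was 0.62 ± 0.11, far smaller than that of the muscle form, and reads of Cpt1b may be shared with Chkb, whose locus it overlaps. The carnitine importer Slc22a5 (3.20 ± 0.14) and the peroxisomal Crot (2.62 ± 0.12) rose too.

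All but 2 of the 17 measured genes of mitochondrial beta-oxidation rose, 15 in all, and 0 fell, with a median of 0.93. Acadl and Acadm, dehydrogenases for long and medium chains, rose by 2.09 ± 0.11 and 1.95 ± 0.08. Hadha was at 521, 554 and 582 CPM in the WT fenofibrate libraries, against 139, 161 and 158 CPM in the WT control libraries, a rise of 1.85 ± 0.08, and its partner subunit Hadhb rose by 1.90 ± 0.07. The 2 that were not called were Etfa (0.25 ± 0.10) and Echs1 (-0.15 ± 0.10). All 7 genes that prepare unsaturated chains rose, with Ech1 at 2.00 ± 0.16, Eci1 at 2.00 ± 0.11 and Decr1 at 1.89 ± 0.11. For ketone bodies 6 of 9 genes rose and 2 fell. The exporter Slc16a1 was at 34.3, 29.5 and 34.2 CPM in the WT fenofibrate libraries, against 7.92, 7.74 and 8.22 CPM in the WT control libraries, a rise of 2.04 ± 0.11. Bdh1, which makes the final hydroxybutyrate, stood at 0.29 ± 0.12 and was not called.

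Genes of fat storage rose beside those of oxidation. Of 15 lipid droplet genes 11 rose and 2 fell, with a median of 1.42. Plin2, a coat protein of droplets, was at 878, 763 and 881 CPM in the WT fenofibrate libraries, against 94.2, 90.01 and 95.4 CPM in the WT control libraries, a rise of 3.17 ± 0.15. Cidec, a droplet fusion protein best known from fat tissue, was at 22.5, 29.99 and 28.5 CPM in the WT fenofibrate libraries, against 0.576, 0.565 and 0.51 CPM in the WT control libraries, a rise of 5.61 ± 0.18. Pnpla2, the lipase that opens the droplet, rose too (1.95 ± 0.10), as did Hsd17b11, a droplet dehydrogenase (3.60 ± 0.12). Of 23 genes of triglyceride and glycerol handling 15 rose and 3 fell. Mgll, which frees the last acyl chain from glycerol, was at 367, 349 and 408 CPM in the WT fenofibrate libraries, against 50.7, 55.2 and 54.9 CPM in the WT control libraries, a rise of 2.81 ± 0.09. Mogat1, an acyltransferase, rose by 4.59 ± 0.17 in WT, and its fold change in KO was 4.805. The glycerol channel Aqp3 held 226, 234 and 278 counts in WT fenofibrate, against 4, 0 and 1 counts in WT control. Aqp9, the main glycerol channel of hepatocytes, stood at 0.06 ± 0.08 and was not called.

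**Figure D2:**
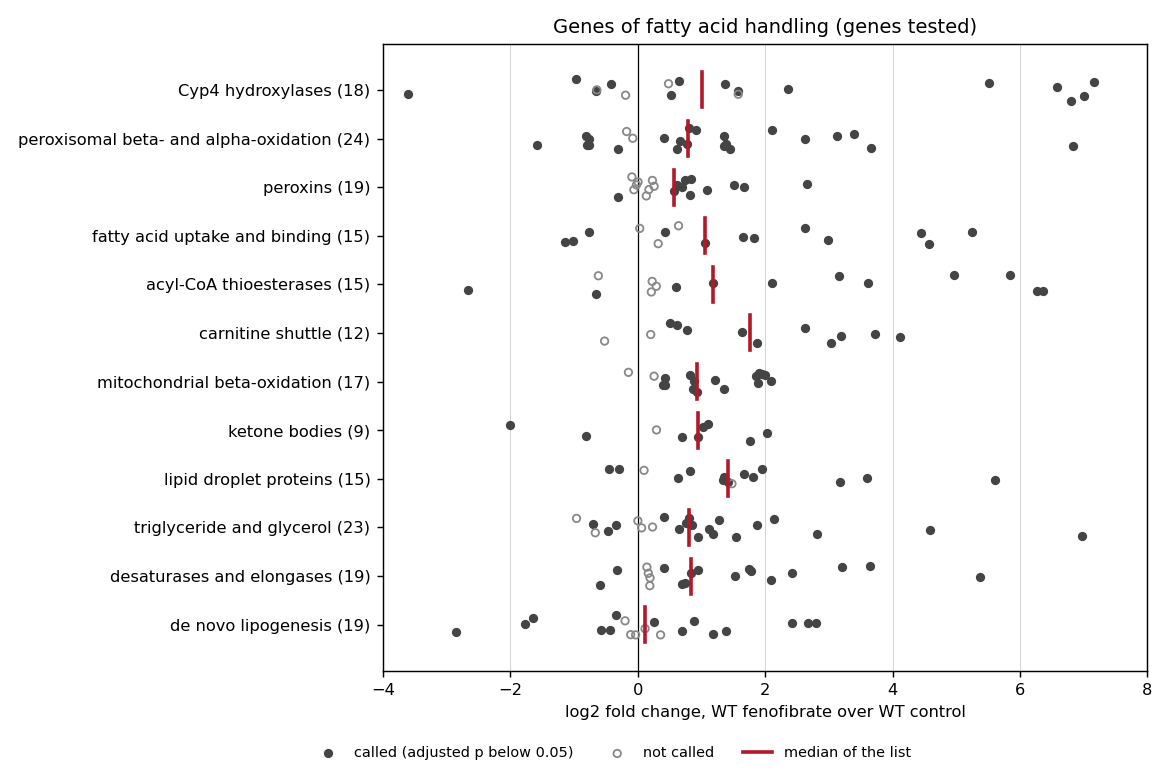
Each point is a gene of the list named at the left (number of genes tested in brackets), at its log2 fold change of WT fenofibrate over WT control; filled points were called and open points were not, and the red line is the median of the list. The thioesterases, the carnitine shuttle and the droplet proteins lie mostly to the right of 0, and the lipogenesis genes lie on both sides.

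Lipogenesis genes did not move in 1 direction. Of 19 genes 8 rose and 6 fell, with a median of 0.11 that ran from 0.05 to 0.19 with a library left out. Acacb, the mitochondrial acetyl-CoA carboxylase, was at 54.5, 77.97 and 74.6 CPM in the WT fenofibrate libraries, against 8.46, 12.7 and 8.61 CPM in the WT control libraries, a rise of 2.80 ± 0.22. Me1, which supplies NADPH, rose by 2.67 ± 0.17. Against these, Thrsp, a lipogenic protein driven by carbohydrate, was at 29.1, 17.02 and 26.9 CPM in the WT fenofibrate libraries, against 208, 164 and 156 CPM in the WT control libraries, and stood at -2.86 ± 0.19, a fall. Srebf1, which drives lipogenesis, stood at -0.11 ± 0.20 and was not called, nor was Mlxipl (0.36 ± 0.21). Genes of desaturation and elongation rose more evenly, with 13 of 19 rising against 2 falls. Scd1, the main desaturase for oleate, was at 1438, 1816 and 1723 CPM in the WT fenofibrate libraries, against 291, 276 and 362 CPM in the WT control libraries, a rise of 2.42 ± 0.36. Its paralogs Scd2 (2.09 ± 0.33) and Scd3 (3.65 ± 0.48) rose as well, and Scd4 was at 1.00, 11.8 and 2.76 CPM in the WT fenofibrate libraries, against 0.121, 0.133 and 0.116 CPM in the WT control libraries. Elovl5, an elongase of polyunsaturated chains, rose by 1.78 ± 0.11, and Fads1, a desaturase of the same chains, stood at 0.16 ± 0.11 and was not called.

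Genes of glucose handling moved in both directions. Of 14 genes of the pyruvate dehydrogenase system, Pdk4 among them, 8 rose and 2 fell, and the kinase Pdk2 fell by 0.43 on the log2 scale (-0.43 ± 0.09). Of 30 genes of glucose metabolism 9 rose and 14 fell, with a median of -0.02 that ran from -0.11 to 0.01 with a library left out and would be 0.80 with library totals. Pklr, the pyruvate kinase of liver, was at 10.9, 11.2 and 12.3 CPM in the WT fenofibrate libraries, against 32.1, 35.5 and 39.7 CPM in the WT control libraries, with a fold change of -1.64 ± 0.17. Fbp2, the muscle form of fructose bisphosphatase, held 611, 440 and 582 counts in WT fenofibrate and 2, 2 and 3 counts in WT control, a rise of 7.64 ± 0.31. The catalytic subunit G6pc stood at 0.19 ± 0.35 and was not called. The glycogen targeting subunits Ppp1r3c (-2.33 ± 0.32) and Ppp1r3b (-1.32 ± 0.19) fell.

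Of 17 genes of the tricarboxylic acid cycle 11 rose and 1 fell, with the citrate synthase Cs at 0.79 ± 0.08. Nuclear genes of the respiratory chain rose in 26 of 79 and fell in 2, with a median of 0.17 (0.09 to 0.28 with a library left out). Among them Cycs, the mobile cytochrome c, rose by 1.31 ± 0.13. Ucp2, an uncoupling protein of the inner membrane, was at 82.4, 81.4 and 81.6 CPM in the WT fenofibrate libraries, against 9.3, 8.49 and 7.96 CPM in the WT control libraries, a rise of 3.25 ± 0.15, and reads may be shared with Dnajb13, whose locus it overlaps. Ucp3, typical of muscle, held 72, 58 and 64 counts in WT fenofibrate and 2, 0 and 1 counts in WT control.

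Lipoprotein genes fell more often than they rose. Of 29 genes 16 fell and 4 rose, with a median of -0.40 that would be 0.40 with library totals. Apoc3, which slows the clearance of triglyceride, was at 389, 305 and 288 CPM in the WT fenofibrate libraries, against 883, 779 and 801 CPM in the WT control libraries, with a fold change of -1.33 ± 0.14 (adjusted p = 3.6e-07). Apoa5, which speeds it, fell too (-0.99 ± 0.13, adjusted p = 8.6e-06). Apoa1 and Apoa2, the main proteins of high density lipoprotein, stood at -0.84 ± 0.13 and -0.69 ± 0.13, both falls, and Apoa2 turns positive with library totals. Apob stood at 0.14 ± 0.18 and was not called, while Mttp, which loads lipid onto it, rose by 1.51 ± 0.08. Pltp, the phospholipid transfer protein, rose by 1.93 ± 0.15.

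Of 26 sterol synthesis genes 5 rose and 4 fell, near the shares of all genes (19.3% higher and 17.6% lower). Hmgcs1, an early enzyme of the route, rose by 1.43 ± 0.35. Of 20 bile acid genes 10 fell and 5 rose, with a median of -0.59 that would be 0.22 with library totals. Cyp7a1, the controlling enzyme of the classic route, was at 50.4, 51.8 and 30.97 CPM in the WT fenofibrate libraries, against 70.9, 76.6 and 63.2 CPM in the WT control libraries. Its difference of -0.66 ± 0.39 was not called (adjusted p = 0.2). Cyp8b1, which sets the share of cholic acid, stood at 0.37 ± 0.14 (adjusted p = 0.042), a call that was lost without WT control 1, WT control 3, WT fenofibrate 2 or WT fenofibrate 3. The clearer falls were Cyp7b1 of the alternative route (-2.06 ± 0.20), the reductase Akr1d1 (-3.23 ± 0.16) and Cyp2c70, which makes muricholic acids in mice. Cyp2c70 was at 6.69, 7.24 and 4.08 CPM in the WT fenofibrate libraries, against 218, 179 and 194 CPM in the WT control libraries, a fold change of -5.04 ± 0.22. Of 26 transporters 14 fell and 6 rose, with a median of -0.50 that would be 0.31 with library totals. The organic anion carriers Slco1a4 (-3.22 ± 0.15) and Slc22a7 (-4.04 ± 0.30) were among the falls, and the efflux pump Abcc4 was among the rises (2.91 ± 0.27).

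Xenobiotic enzymes split by family. Of 15 Cyp2c genes 9 fell and 3 rose, with a median of -2.32. Cyp2c50 was at 16.9, 28.1 and 17.4 CPM in the WT fenofibrate libraries, against 143, 199.9 and 170.0 CPM in the WT control libraries, with a fold change of -3.04 ± 0.18. Cyp2c54 (-3.51 ± 0.20) and Cyp2c37 (-2.98 ± 0.19) fell alongside, while Cyp2c55 rose by 1.06 ± 0.22. These paralogs share sequence, so the part of each is uncertain. A list of 20 genes around the receptors CAR and PXR had 5 rises and 5 falls, where 19.3% and 17.6% of all genes rose and fell. It also holds receptor genes and genes of the aryl hydrocarbon receptor. Nr1i2, which encodes PXR, was among the rises, and Ahr, Cyp1a1 and Cyp1a2 were among the falls. Cyp2b10, the classic CAR target, was at 24.97, 30.6 and 15.6 CPM in the WT fenofibrate libraries, against 11.5, 12.2 and 10.4 CPM in the WT control libraries. Its rise of 1.06 ± 0.36 (adjusted p = 0.026) was lost in all fits that left out 1 library except the one without WT fenofibrate 3. Cyp3a11, the classic PXR target, stood at -0.16 ± 0.15 and was not called. Cyp1a2, a target of the aryl hydrocarbon receptor, was at 73.1, 73.5 and 82.8 CPM in the WT fenofibrate libraries, against 365, 489 and 443 CPM in the WT control libraries, a fold change of -2.50 ± 0.13.

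Of 20 glutathione transferases 10 fell and 6 rose. Gstp1, male-biased in mouse liver, was at 868, 821 and 937 CPM in the WT fenofibrate libraries, against 3744, 3113 and 2598 CPM in the WT control libraries, a fold change of -1.85 ± 0.24, and Gstm4 rose by 1.28 ± 0.15. Of 17 carboxylesterases 8 fell and 4 rose, and Ces1c, the carboxylesterase of mouse plasma, was at 136, 113 and 120.4 CPM in the WT fenofibrate libraries, against 1247, 1449 and 1460.4 CPM in the WT control libraries. Its fold change was -3.49 ± 0.11. Sult1a1, a phenol sulfotransferase, fell (-2.27 ± 0.20). Genes of glutathione and the NRF2 response rose in 11 of 18 and fell in 3, with Srxn1 at 1.65 ± 0.15, and Gclc (0.11 ± 0.12) and Hmox1 (-0.24 ± 0.23) were not called.

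Genes of proteins that hepatocytes secrete were mostly lower. Of 32 plasma and acute phase genes 25 fell and 0 rose, with a median of -1.31. Alb, albumin, was at 12331, 13554 and 13092 CPM in the WT fenofibrate libraries, against 26760.0, 26834 and 27062 CPM in the WT control libraries, a fold change of -1.05 ± 0.13. Trf, transferrin, was at 2214, 2194 and 2188 CPM in the WT fenofibrate libraries, against 8479, 8549 and 8306 CPM in the WT control libraries, a fold change of -1.94 ± 0.10. The groups were apart for both. Saa1 and Saa2, serum amyloid A, fell by the most in this list (-5.00 ± 1.195 and -5.80 ± 1.53), but the controls differed widely among themselves. Saa2 had 32, 62 and 9 counts in the WT fenofibrate libraries and 3851, 397 and 1257 counts in the WT control libraries. Hp (-0.05 ± 0.21) and Cp (-0.14 ± 0.09), also acute phase proteins, were not called. Of 29 complement genes 24 fell and 1 rose, with a median of -1.196. The 1 riser was Cfd, adipsin, best known from fat tissue, with 12, 3 and 26 counts in WT fenofibrate and 0, 4 and 0 counts in WT control. The groups overlapped, and the call was lost without WT control 1, WT control 3 or WT fenofibrate 3. C9 was at 58.6, 40.9 and 49.9 CPM in the WT fenofibrate libraries, against 375, 310.1 and 318 CPM in the WT control libraries, a fold change of -2.75 ± 0.16, whereas C3 stood at -0.15 ± 0.11 and was not called. Of 32 genes of coagulation and fibrinolysis 25 fell and 1 rose, with F11 at -2.37 ± 0.11 and F7 at -1.78 ± 0.09. Fibrinogen fell in all its chains, with Fgb at -1.04 ± 0.13 (adjusted p = 5.9e-06) and Fgg at -1.40 ± 0.15. None of 22 Serpina genes rose and 12 fell, Serpina1c among them (-1.78 ± 0.12). Of 15 hepatocyte markers, which share Alb, Trf and Ttr with the plasma proteins, 11 fell and 0 rose, with a median of -0.65 that would be 0.17 with library totals. Their summed level was 19617 to 21172 CPM in the WT fenofibrate libraries and 45059.8 to 45254 CPM in the WT control libraries, and their part in the falls of secreted proteins was not tested. The medians of the 4 lists of secreted proteins stayed below 0 with library totals, at -0.52, -0.38, -0.07 and -0.39 in the order given.

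**Figure D3:**
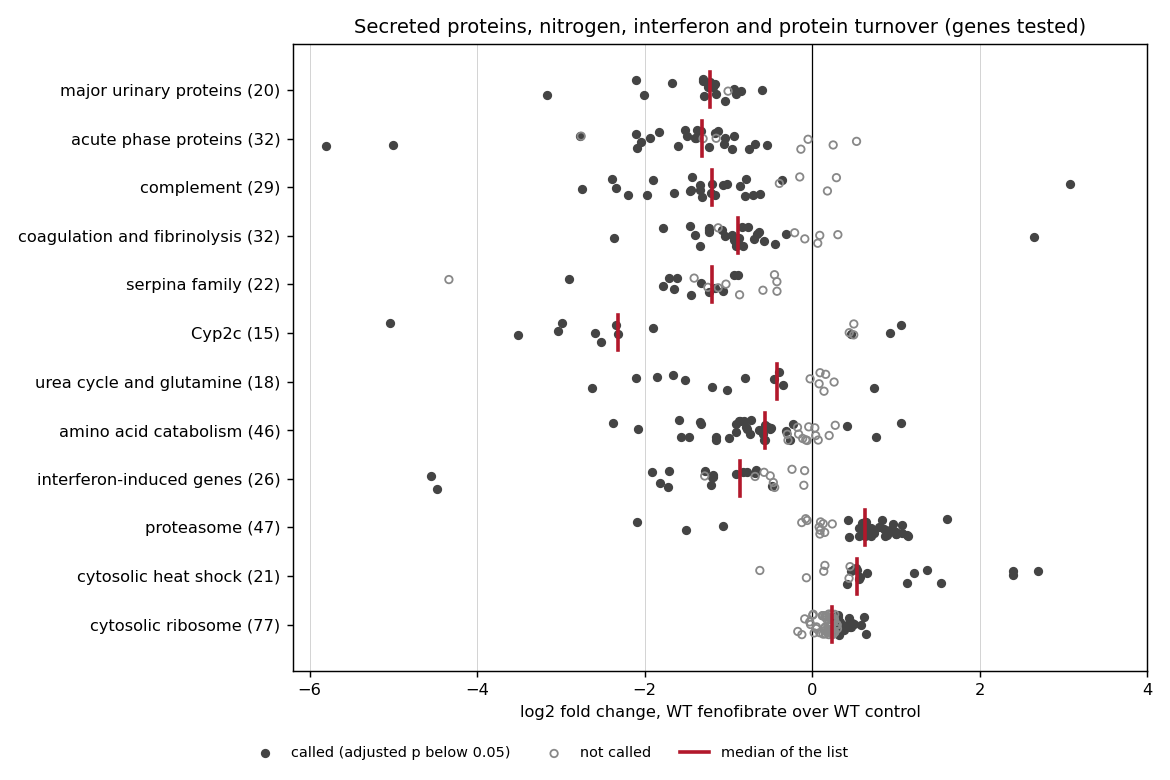
Each point is a gene of the list named at the left (number of genes tested in brackets), at its log2 fold change of WT fenofibrate over WT control; filled points were called and open points were not, and the red line is the median of the list. The secreted proteins, the Cyp2c genes and the interferon-induced genes lie mostly to the left of 0, and most proteasome and heat shock genes lie to the right.

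The Mup loci, which code for pheromone carriers shed in urine, took 56.2%, 50.1% and 46.0% of all counts in the WT fenofibrate libraries and 69.7%, 66.5% and 64.9% in the WT control libraries. The means were 50.8 ± 5.13% in WT fenofibrate and 67.03 ± 2.45% in WT control (SD, n = 3 each), a difference of -16.2 percentage points (exact two-sided permutation test, p = 0.1, the smallest that 3 against 3 libraries allow). The groups did not overlap. Of 20 Mup genes tested 19 fell and 0 rose, with a median of -1.22. Mup21 was at 112, 12.7 and 77.2 CPM in the WT fenofibrate libraries, against 698, 511 and 611 CPM in the WT control libraries, a fold change of -3.17 ± 0.58, and Mup3 fell too (-2.00 ± 0.19). Most of the central Mup genes are near copies, so counts for single genes are uncertain and the sum is the firmer value. In KO the share was 64.5%, 57.0% and 59.2% with fenofibrate and 61.6%, 56.5% and 58.1% on the control diet.

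**Figure D4:**
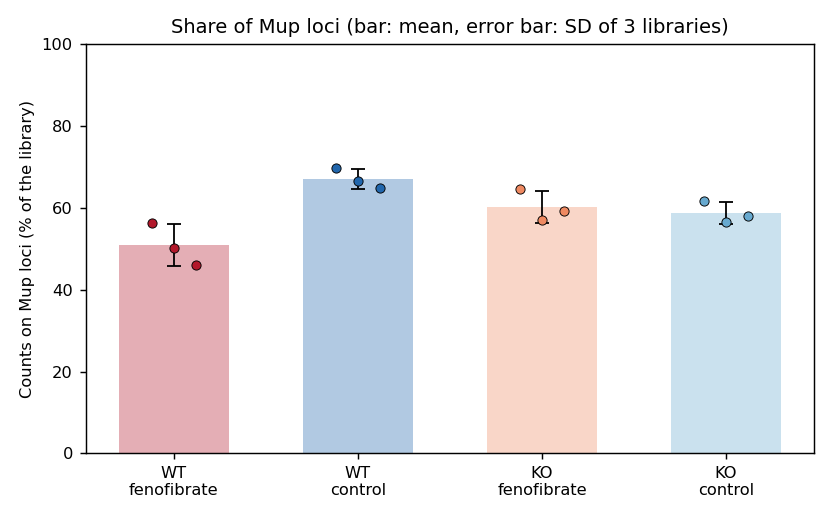
Percent of all counts on the 22 Mup loci in each library of WT fenofibrate, WT control, KO fenofibrate and KO control; bars are means and error bars the SD of 3 libraries. The WT fenofibrate libraries lie at 46.0% to 56.2%, all below the WT control libraries, while the KO groups overlap.

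Mup genes are driven by growth hormone pulses, and some other genes of that axis fell as well. Of 22 genes 8 fell, 2 rose and 12 were not called, with a median of -0.34 that would be 0.46 with library totals. The 2 risers were Stat5a (0.87) and Igfbp2 (0.74). The part of this axis in the Mup falls was not tested. Ghr, the growth hormone receptor, was at 77.5, 66.6 and 79.05 CPM in the WT fenofibrate libraries, against 213, 215 and 226 CPM in the WT control libraries, a fold change of -1.55 ± 0.08. Igf1, its main product in liver, was at 67.8, 50.6 and 72.1 CPM in the WT fenofibrate libraries, against 167, 154 and 158 CPM in the WT control libraries, a fold change of -1.33 ± 0.10. Cish, a feedback inhibitor of the pathway, had 33, 36 and 32 counts in WT fenofibrate and 337, 261 and 87 counts in WT control. Stat5b, which carries the signal, stood at -0.29 ± 0.13 and was not called. Of 16 male-biased genes 10 fell and 3 rose. Hsd3b5, a steroid dehydrogenase of male liver, was at 2.16, 0.283 and 2.47 CPM in the WT fenofibrate libraries, against 70.1, 63.5 and 65.8 CPM in the WT control libraries, a fold change of -5.32 ± 0.42. WT fenofibrate 2 was the lowest library for Hsd3b5 and for Mup21. Elovl3, also male-biased, rose by 1.74 ± 0.22, as did Cyp4a12a and Cyp4a12b above. Of 18 female-biased genes 7 rose and 1 fell, and several of the risers are lipid genes already named, such as Cyp4a10, Acot3 and Abcd2.

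Other hepatokines and metal carriers moved in both directions. Of 26 hepatokines 16 fell and 4 rose, with a median of -0.67 that would be 0.14 with library totals. Enho, which encodes adropin, fell (-2.72 ± 0.23), Ahsg, or fetuin A, fell (-1.83 ± 0.10), and the inhibin subunit Inhbb rose by 1.59 ± 0.41. Hamp, which encodes hepcidin, the hormone that blocks iron release, was at 131, 144 and 109 CPM in the WT fenofibrate libraries, against 359, 251 and 343 CPM in the WT control libraries, a fold change of -1.31 ± 0.18. Tfrc, the transferrin receptor, rose by 1.09 ± 0.27, while the ferritin chain Fth1 stood at 0.16 ± 0.09 and was not called. Among zinc genes the importer Slc39a5 was at 12.3, 10.97 and 12.4 CPM in the WT fenofibrate libraries, against 0.149, 0.349 and 0.162 CPM in the WT control libraries, a rise of 5.75 ± 0.25, and the metallothioneins Mt1 (-0.85 ± 0.47) and Mt2 (-1.05 ± 0.68) were not called.

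Nitrogen and amino acid genes mostly fell. Of 18 urea cycle and glutamine genes 11 fell and 1 rose, with a median of -0.43 that would be 0.39 with library totals. Gls2, the liver glutaminase, was at 24.3, 20.4 and 18.9 CPM in the WT fenofibrate libraries, against 152, 122 and 121 CPM in the WT control libraries, a fold change of -2.63 ± 0.11. Ass1, which joins citrulline and aspartate, was at 619, 614 and 499.5 CPM in the WT fenofibrate libraries, against 2549.7, 2621 and 2293 CPM in the WT control libraries, a fold change of -2.11 ± 0.12. Cps1 fell less (-1.198 ± 0.18), and Arg1, the last enzyme, stood at -0.03 ± 0.10 and was not called. Glul, the glutamine synthetase of pericentral cells, was not called either (0.09 ± 0.11). Of 46 amino acid genes 30 fell and 3 rose, with a median of -0.56 that would be 0.25 with library totals. Gnmt, which consumes methyl groups, was at 196, 170.0 and 164 CPM in the WT fenofibrate libraries, against 980.2, 909 and 873 CPM in the WT control libraries, a fold change of -2.38 ± 0.12, and Prodh fell too (-2.08 ± 0.13). In the route from tryptophan to NAD Acmsd, which diverts carbon away from NAD, fell (-2.41 ± 0.22), and Nnmt, which methylates nicotinamide, was at 0.984, 1.25 and 0.291 CPM in the WT fenofibrate libraries, against 16.04, 6.71 and 5.16 CPM in the WT control libraries (-3.48 ± 0.51). Of 17 periportal markers 14 fell and 0 rose, and of 18 pericentral markers 9 fell and 1 rose, with medians of -1.15 and -0.56 that would be -0.34 and 0.25 with library totals, and several members of the periportal list are the urea and secretion genes above.

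Most proteasome genes rose. Of 47 proteasome genes 34 rose and 3 fell, with a median of 0.63. Psmd4, a ubiquitin receptor of the regulatory cap, was at 114, 97.03 and 98.9 CPM in the WT fenofibrate libraries, against 32.9, 33.03 and 35.7 CPM in the WT control libraries, a rise of 1.61 ± 0.11. Psma5, a core subunit, rose by 1.15 ± 0.12, and Psmc4, a cap ATPase, by 1.13 ± 0.12. The groups did not overlap for these subunits. The 3 that fell were the inducible subunits that replace constitutive ones in the immunoproteasome. Psmb8 was at 2.02, 1.46 and 1.65 CPM in the WT fenofibrate libraries, against 8.00, 6.6 and 7.32 CPM in the WT control libraries, a fold change of -2.09 ± 0.18. Psmb10 stood at -1.51 ± 0.14 and Psmb9 at -1.07 ± 0.16, and the locus of Psmb9 overlaps Tap1. None of the 3 was above its control level in any WT fenofibrate library.

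Of 21 cytosolic and mitochondrial chaperone genes 15 rose and 0 fell, with a median of 0.53. Hspb1, a small heat shock protein, was at 8.58, 14.3 and 15.96 CPM in the WT fenofibrate libraries, against 2.04, 2.01 and 1.91 CPM in the WT control libraries, a rise of 2.70 ± 0.29. Hspa1b, an inducible chaperone, was at 17.1, 85.9 and 104 CPM in the WT fenofibrate libraries, against 10.8, 14.2 and 14.2 CPM in the WT control libraries, a rise of 2.40 ± 0.55, and its near copy Hspa1a stood at 2.40 ± 0.55. WT fenofibrate 1 lay close to the controls, and the other 2 WT fenofibrate libraries far above them. Hsp90aa1 rose by 1.37 ± 0.14 and the mitochondrial Hspd1 by 1.21 ± 0.07. Of 28 genes of endoplasmic reticulum stress and the integrated stress response 10 fell and 4 rose, with Hyou1 at -1.18 ± 0.27, a fall, and Hsp90b1 at -0.11 ± 0.10 and Calr at -0.30 ± 0.12, not called. Cytosolic ribosomal proteins rose in 22 of 77 and fell in 0, with a median of 0.23 (0.13 to 0.35 with a library left out), and mitochondrial ones rose in 22 of 72 and fell in 1.

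Of 40 cell cycle genes 14 rose and 2 fell, and 6 of the risers were subunits of the replicative helicase. The median was 0.30, but 0.083 without WT fenofibrate 1, 0.17 without WT control 3 and 0.50 without WT fenofibrate 2. Mcm2, one of these subunits, was at 5.05, 2.71 and 2.36 CPM in the WT fenofibrate libraries, against 0.659, 0.729 and 0.394 CPM in the WT control libraries, a rise of 2.50 ± 0.38. Mcm5 (2.46 ± 0.42) and Mcm6 (2.36 ± 0.40) rose likewise, as did Cdkn1a, an inhibitor of the cycle (2.49 ± 0.36). Pcna stood at -0.04 ± 0.14 and was not called. Mki67, a marker of cycling cells chosen after its values were seen, was at 0.212, 0.399 and 0.382 CPM in the WT fenofibrate libraries, against 0.353, 0.287 and 0.394 CPM in the WT control libraries. It was not called (-0.07 ± 0.35, adjusted p = 0.9), and the groups overlapped. Mcm10, also chosen after its values were seen, went the other way, at 20.2, 15.8 and 20.2 CPM in the WT fenofibrate libraries, against 49.6, 36.7 and 42.3 CPM in the WT control libraries (-1.19 ± 0.13). Among clock genes 8 of 17 fell and 1 rose, with a median of -0.61 that would be 0.20 with library totals. Examples are Cry1 at -2.11 ± 0.21, a fall, and Clock, which rose by 0.83 ± 0.15. The hour of sampling is not given.

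Most interferon-induced genes fell in WT. Of 26 such genes 17 fell and 0 rose, with a median of -0.87, or -0.06 with library totals. Irf7, which amplifies the interferon response, was at 1.4, 1.18 and 1.17 CPM in the WT fenofibrate libraries, against 4.15, 4.00 and 4.23 CPM in the WT control libraries, a fold change of -1.72 ± 0.18. Apol9b, an interferon-induced apolipoprotein L, was at 1.56, 0.934 and 0.964 CPM in the WT fenofibrate libraries, against 28.8, 25.1 and 27.7 CPM in the WT control libraries, a fold change of -4.55 ± 0.20. Ifit3 (-1.82 ± 0.18) and Isg15 (-1.71 ± 0.32) fell too, whereas the signal carrier Stat2 (-0.10 ± 0.15) was not called. In KO the same list had a median of 0.57 with fenofibrate, and 6 members rose and 0 fell, where 0.997% and 0.548% of all genes did so. The interaction of genotype and diet was called for 22 of the 26, against 22.3% of all genes. Markers of other cells moved beside these genes. Of 14 Kupffer cell markers 10 fell and 0 rose, with a median of -0.58, and all 10 falls turn positive with library totals. Their summed level was 84.2 to 103 CPM in the WT fenofibrate libraries and 126 to 133 CPM in the WT control libraries, and none was at 0. Clec4f, a receptor found on Kupffer cells, was at 13.96, 12.5 and 11.6 CPM in the WT fenofibrate libraries, against 22.9, 21.1 and 19.96 CPM in the WT control libraries (-0.75 ± 0.12). Of 12 lymphocyte markers 3 held 0 counts and 4 more too few to test, and their summed level was 0.773 to 1.44 CPM in WT fenofibrate and 1.46 to 1.7 CPM in WT control. Their part in the interferon result was not tested.

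Of 13 endothelial markers 1 rose and 4 fell, and of 13 stellate cell markers 5 fell and 0 rose. Of 7 bile duct markers 2 fell and 0 rose. All falls in these 3 lists turn positive with library totals. Among the markers Dcn, a matrix protein of stellate cells, fell by 0.42 on the log2 scale (-0.42 ± 0.08), and Lyve1, an endothelial receptor, rose by 0.95 ± 0.22. The haemoglobin genes Hba-a1 (0.30 ± 0.44) and Hbb-bs (0.22 ± 0.43), which mark blood left in the tissue, were not called.

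Further genes with large changes follow. Spon2, a secreted matrix protein, was at 19.6, 16.1 and 20.4 CPM in the WT fenofibrate libraries, against 0.427, 0.257 and 0.278 CPM in the WT control libraries, a rise of 5.84 ± 0.19. Serinc2 rose by 5.18 ± 0.21, and Lamb3, a laminin chain of basement membranes, by 5.10 ± 0.17. Dsg1c, a desmosomal cadherin, was at 0.212, 0.168 and 0.273 CPM in the WT fenofibrate libraries, against 6.75, 7.23 and 8.87 CPM in the WT control libraries, a fold change of -5.11 ± 0.32. Etnppl, which breaks down phosphoethanolamine, was at 10.2, 11.1 and 10.02 CPM in the WT fenofibrate libraries, against 98.04, 96.5 and 99.1 CPM in the WT control libraries, a fold change of -3.23 ± 0.17. Map2k6, a kinase upstream of p38, and Aox3, an aldehyde oxidase, fell as well (-3.22 ± 0.17 and -3.20 ± 0.14).

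Whether the response needed PPARA was addressed by the same diet in KO, which shares no library with the WT comparison. In KO 220 of 14241 genes were called (1.54%), with 142 higher (0.997%) and 78 lower (0.548%), and the interaction of genotype and diet was called for 3178 (22.3%). Of the 1603 genes with at least a 2-fold change in WT the interaction was called for 1136, and 65 were also called in KO in the same direction. Some lipid genes that rose in WT also had KO fold changes above 0, such as Mogat1 (4.805), Cyp4a10 (2.29) and Acaa1b (1.59). In KO 2 of 18 Cyp4 genes rose and 2 fell, with a median of 0.14. Of 24 peroxisomal oxidation genes 2 rose and 2 fell (median -0.01). Of 23 triglyceride and glycerol genes 1 rose and 0 fell (median 0.04). Pdk4 was at 2.22, 1.71 and 3.94 CPM in KO fenofibrate and 2.83, 3.83 and 3.34 CPM in KO control, and the difference between the genotypes was 8.20 ± 0.36 (adjusted p = 1.9e-11). For Ehhadh the difference was 6.35 ± 0.18 (adjusted p = 1.1e-13), for Cyp4a14 6.47 ± 0.70 (adjusted p = 1.8e-06) and for Acot1 5.30 ± 0.22 (adjusted p = 1.1e-11). Apoc3 (-1.10 ± 0.19, adjusted p = 0.00034) and Fgb (-0.90 ± 0.19, adjusted p = 0.0019) fell more in WT. For Apoa1, Apoa2 and Apoa5 the difference was not called, at -0.25 ± 0.18, -0.34 ± 0.18 and -0.42 ± 0.18, and all 3 also stood below 0 in KO (-0.59 ± 0.13, -0.35 ± 0.13 and -0.56 ± 0.13). For Cyp8b1 the difference was 0.64 ± 0.20 (adjusted p = 0.024), and this call was lost without WT control 3, KO control 3 or KO fenofibrate 3. It was not called for Ppara, Angptl4 or Cyp7a1. Fgf21 had 0, 3 and 0 counts in KO fenofibrate and 0 in each KO control library, too few for a KO fold change.

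**Figure D5:**
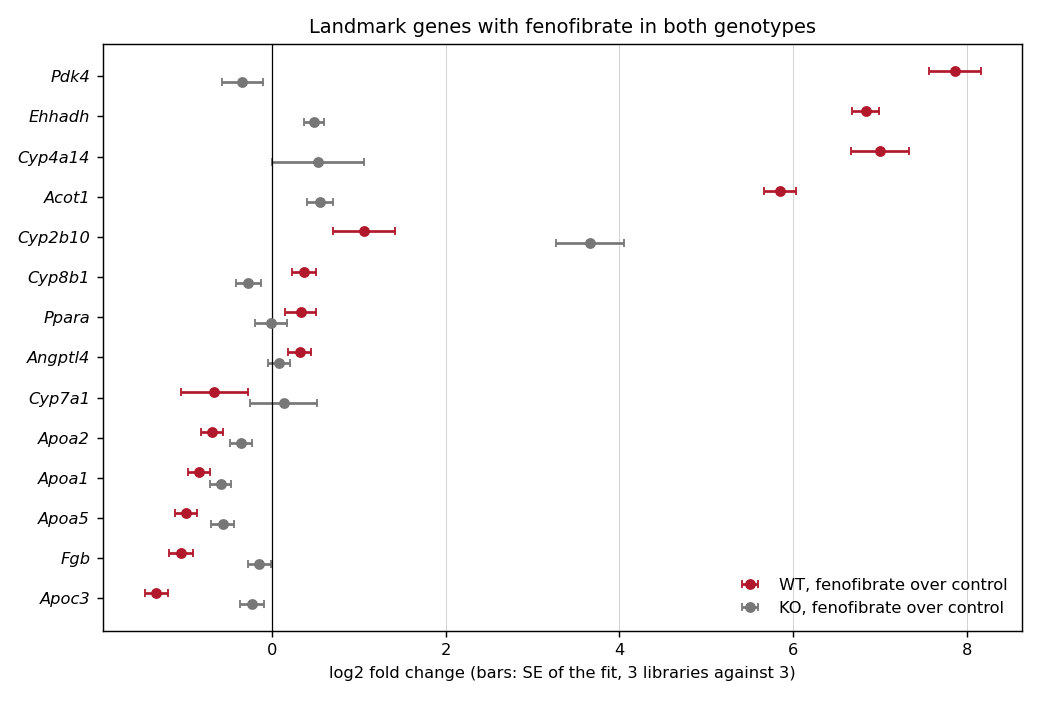
Log2 fold change of fenofibrate over control in WT (red) and in KO (grey) for the landmark genes other than Fgf21 and Txnip, with bars of 1 SE. Pdk4, Ehhadh, Cyp4a14 and Acot1 lie far to the right in WT alone, Cyp2b10 lies further right in KO. Fgf21 is not plotted, since it had 0 to 3 counts in the KO libraries.

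Xenobiotic enzymes were prominent among the rises in KO. Of the 220 KO calls 149 were also called in WT, 121 of them in the same direction, where 36.9% of all genes were called. Cyp2c55 was at 76.8, 53.02 and 61.6 CPM in KO fenofibrate and 0.898, 0.925 and 0.824 CPM in KO control, a rise of 6.17 ± 0.23 (adjusted p = 9.6e-12), against 1.06 ± 0.22 in WT. Cyp2b10 was at 273, 190.1 and 225 CPM in KO fenofibrate and 5.89, 19.7 and 28.6 CPM in KO control, a rise of 3.67 ± 0.39. Its difference between the genotypes was -2.60 ± 0.51 (adjusted p = 0.00099). The glutathione transferases Gstm3 (2.70 ± 0.29) and Gstm4 (1.86 ± 0.16) rose in KO, as did Cyp2c29 (1.85 ± 0.17). Cyp2c50, Cyp2c54 and Cyp2c37, which fell in WT, rose in KO, by 1.19 ± 0.17, 1.01 ± 0.18 and 1.34 ± 0.17. Of the 20 genes of the CAR and PXR list above 7 rose in KO, against 0.997% of all genes. Dlec1 rose as well (1.64 ± 0.13), and its locus overlaps Acaa1b. Hist1h2bk (1.78 ± 0.31) lost its call without KO control 1, and Neat1 (1.66 ± 0.38) lost it without KO control 1, KO control 2, KO fenofibrate 2 or KO fenofibrate 3. Hist1h2bb rose by 5.04 ± 1.04, a call that was lost without any one of the KO control libraries. The number of KO calls itself rests on single libraries, at 55, 54 and 105 without KO control 1, KO control 2 and KO control 3 and 482 without KO fenofibrate 2.

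Set directly against Wy in WT, fenofibrate gave 128 calls (0.899%), with 82 genes higher (0.576%) and 46 lower (0.323%). None of Pdk4, Ehhadh, Cyp4a14 and Acot1 was among them, with differences of 0.05 ± 0.21, 0.11 ± 0.12, 0.13 ± 0.25 and -0.34 ± 0.15, and this does not show that they respond alike. The doses in the chow were not the same, 0.5% and 0.1%. Cyp2c29 was at 1875, 1929 and 1169 CPM in WT fenofibrate and 129.5, 104 and 103 CPM in WT Wy, a difference of 3.89 ± 0.19 (adjusted p = 1.1e-09). Gstm3 was higher by 3.04 ± 0.29, Cyp3a41a by 2.62 ± 0.31, Cyp3a41b by 2.54 ± 0.27 and Gsta1 by 2.11 ± 0.26. Cyp2c50, Cyp2c37 and Cyp2c54 were higher than with Wy too, by 2.54 ± 0.18, 2.38 ± 0.20 and 2.05 ± 0.20. The library WT Wy 3 stood apart with 308 counts of Xist, an RNA of female cells, against 0 in the other 2 Wy libraries. Without it Cyp2c29 differed by 3.82, Cyp3a41a by 2.59 and Cyp3a41b by 2.70, all still called. The calls of Orm3 (5.30 ± 1.201) and Cyp3a44 (2.86 ± 0.63) were lost without any one of the Wy libraries or WT fenofibrate 1, and that of Orm3 also without WT fenofibrate 3. The number of calls was 62, 57 and 40 without WT Wy 1, WT Wy 2 and WT Wy 3, and 72 and 50 without WT fenofibrate 1 and WT fenofibrate 2.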

How the data were processed

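Polyadenylated RNA of pooled mouse livers was sequenced, and the deposited files hold raw read counts per locus, made by the authors and read here from the raw count column. The tools named, per the submitters' processing notes, are TopHat2 2.0.8, Picard 1.84, Trimmomatic 0.30 and bcl2fastq 2.17, and the build is mm10. The counting tool and strand setting are not given in the sources used. Of 52463 loci, 31099 with a gene identifier were kept; the other 21364 held 0.989% of the counts. Rows that name no locus (12, in 6 of the files) were dropped, and 5 further columns of reads, which fit no sample's labels, played no part. Symbols were repaired through the gene identifier for 29 loci. Totals were 68858479 to 150695447 counts per library in the 6 WT libraries, so counting error is small beside the spread between pools for genes with many counts. It is not small for genes with few counts, such as Aqp3, Ucp3 and Cfd in WT control.

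Counts were tested with edgeR 4.0.16 (R 4.3.3): TMM scaling, a filter on low counts by group that left 14241 genes, 1 quasi-likelihood model over all 18 libraries, and Benjamini-Hochberg adjustment over all genes tested at 0.05. The p-values measure the spread between pools. The Mup share was compared with an exact two-sided permutation test, whose smallest p with 3 against 3 libraries is 0.1. The fit was also run on simulated counts with as many rises as falls and no shift of the Mup loci as a set. That run therefore does not test the scaling. The members and gene lists were chosen with earlier results of these data known. Genes were named by rule: the 20 largest rises and falls without overlap at a mean of at least 5 CPM in the higher group, up to 6 called and 3 uncalled members of each list, the landmark genes, and up to 10 genes each of the Wy and KO comparisons; Cpt1a, Cyp4a12a, Cyp4a12b, Mki67, Mcm10, Uox and Xist were chosen after their values were seen, and Y-linked genes were used as a check of the libraries. Alternatives were RLE scaling, TMM without the Mup loci, library totals, no filter, DESeq2 1.42.0, a replicate block, only the 6 libraries compared, a test against a 1.5-fold change, a robust prior and leaving out each library. In KO, libraries with the same replicate number deviated together (r of 0.124, 0.228 and 0.219 over 9719 genes, across genes, which are not independent). The KO values given come from the model without a block. A block by replicate number gave 201 KO calls in place of 220.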

Additional observations from a re-analysis of the deposited data

Results flagged for a closer look

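The results in this paragraph are listed because the response to fenofibrate differed between WT and KO, by the interaction term of the edgeR model over 3 libraries a group. The term was called for 3178 genes. For the landmark genes the difference of the log2 fold changes, WT minus KO, was 8.20 for Pdk4, 6.35 for Ehhadh, 6.47 for Cyp4a14 and 5.30 for Acot1. It was -1.10 for Apoc3 and -0.90 (-0.898) for Fgb. It was 0.64 (0.643) for Cyp8b1, and this call was lost without WT control 3, KO control 3 or KO fenofibrate 3. It was -2.60 for Cyp2b10, the one of these genes that rose more in KO.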

How the results depend on the processing

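The number of genes called in WT stood at 5253 and was 4389 to 4744 when 1 of the 6 libraries was left out. It was 10396 with library totals, which shift the median gene by 0.81 log2 units, and 1532 in the test against a 1.5-fold change. The KO count of 220 became 95 with library totals, 504 with DESeq2, 33 with only the 6 libraries compared and 54 to 482 with a library left out. The interaction count of 3178 became 7432 with library totals and 2638 to 3299 with a library left out. The count against Wy, 128, became 47 with library totals, 288 with DESeq2 and 40 to 119 with a library left out. Of the gene lists 34 had a median above 0, and 62 did with library totals. The cause of these changes was not tested. The replicate block gave 5183 calls in WT, 3082 for the interaction and 109 against Wy. In WT the same-numbered libraries correlated at 0.493, 0.409 and 0.0758. WT fenofibrate 1 correlated at -0.465 with WT control 2, and WT fenofibrate 2 at -0.404 with WT control 1. The main model took the numbers as pairs in neither genotype. WT fenofibrate 3 correlated more with WT control 2 (0.119) than with its own number. With the 2 further loci that RefSeq names Mup genes, an alternative chosen after seeing the data, the difference in share was -17.4 percentage points. The Mup list has no median under TMM without the Mup loci. With a library left out, no named gene called in the main fit or the refit turned its direction between WT fenofibrate and WT control. Turns of genes called in neither fit were not counted. The interaction of Cyp7a1, which was not called, stood at -0.80 and ran from -1.095 to 0.092, and that of Fgf21, also not called, turned too.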
